A study of Mus musculus with 20 samples.

Results

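The endoplasmic reticulum (ER) unfolded protein response was followed through 10 genes, Xbp1, Herpud1, Dnajb9, Dnajc3, Hspa5, Hsp90b1, Calr, Pdia4, Sdf2l1 and Edem1, chosen by name as well known members of the pathway. The choice was made with earlier results of these data known, so counts of called genes among the 10 are not independent of the data. All 10 are among the 13225 genes measured, and none was lost to a filter on low values, the lowest count of any of them in a library being 407 reads. The cells were alveolar macrophages, the phagocytes that live on the airway surface of the lung, sorted as CD45, SiglecF and CD11c positive cells. Wild type (WT) mice were C57BL/6, and the knockout mice (KO), which lack the microRNA miR-155, carried the allele of B6.Cg-Mir155tm1.1Rsky/J. Exposure was to air or to smoke from cigarettes and lasted 4 weeks. The 2 genotypes and 2 exposures made 4 groups (WT air, WT smoke, KO air, KO smoke) of 5 poly-A RNA libraries, 20 in all, each with a code of its own such as Ib1. The labels give neither age nor sex, nor what the codes mean. Where libraries of a group are not from separate animals, the p values cover only the spread between libraries.

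Proteins bound for the cell surface, the lysosome or secretion are folded in the ER. When unfolded protein builds up there, 3 sensors in the ER membrane, IRE1, PERK and ATF6, start a programme that raises folding capacity and disposal. IRE1 removes an intron from the Xbp1 messenger RNA, and the spliced form encodes the active transcription factor; reads summed over a gene do not show this splicing. ATF6 and XBP1 switch on the ER chaperones, above all Hspa5, which encodes BiP, through promoter motifs known as ER stress response elements. Herpud1, Edem1 and their partners send misfolded protein to degradation. The spliced form of XBP1 is also known to induce Dnajb9, Dnajc3, Edem1 and Sdf2l1.

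The promoters of 5 of the 10 genes hold a motif through which ATF6 and XBP1 are known to act, and the stretches around it are shown because some of these genes were called with smoke and others were not. The ER stress response element was searched as CCAAT, 9 bases of any kind and CCACG, and its second form as ATTGG, 1 base and CCACG, on both strands in the 250 bases before the RefSeq start of each gene (build GRCm38.p6). All 10 genes had a promoter in the RefSeq table. The first element lay in 4 of the 10, against 0.113% of 32851 promoters of the same length, and the second in Herpud1, against 0.0304%. Among 11985 promoters of measured genes the shares were 0.159% and 0.0584%. The 10 genes were chosen as known members of the pathway that acts through these elements, so the shares describe that choice and test nothing. The stretches are printed on the strand of the gene, with both parts of the element in capitals (CGTGG and ATTGG being the opposite-strand readings of CCACG and CCAAT).
Hspa5, chr2:34772017-34772051, plus strand: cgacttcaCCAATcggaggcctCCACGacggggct
Dnajc3, chr14:118937819-118937853, plus strand: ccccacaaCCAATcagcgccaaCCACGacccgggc
Calr, chr8:84847067-84847101, minus strand: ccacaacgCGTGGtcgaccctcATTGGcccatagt
Hsp90b1, first copy, chr10:86705630-86705664, minus strand: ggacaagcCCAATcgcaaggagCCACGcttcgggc
Hsp90b1, second copy, chr10:86705525-86705559, minus strand: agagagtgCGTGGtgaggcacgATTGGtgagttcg
Herpud1, second form, chr8:94386369-94386395, plus strand: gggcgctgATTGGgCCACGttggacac
The promoters of Xbp1, Dnajb9, Pdia4, Sdf2l1 and Edem1 did not hold these letters in this window. Another motif, TGACGTGG, the core of the element that XBP1 binds, was in the window of 0 of the 10 genes and of 0.563% of all promoters. A match is a description of the sequence and does not show that a factor binds there.

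Since the mice differ in miR-155, the 3′ untranslated regions were searched for the site that pairs with bases 2 to 8 of the microRNA (its seed, in capitals), read from RefSeq at chr16:84714143-84714165, plus strand.
mmu-miR-155-5p: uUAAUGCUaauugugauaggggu
Dnajc3, from base 810 of its 3′ untranslated region, with the site AGCATTA in capitals and 8 bases on each side: atgggcagAGCATTAtggttgcc
Of the 10 genes, Dnajc3 alone held the site, once in 3513 bases (GENCODE release M21), beside 9.68% of the 11296 genes with such a region. Xbp1 and Herpud1, the genes that were higher in KO smoke than in WT smoke, held none in the 989 and 622 bases searched. Only the longest annotated region of each gene was searched, and targeting by miR-155 was not tested. Sites of other kinds were not searched.

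The libraries held 6885680 to 11952088 reads. The identity of the cells was checked by marker genes. All 14 alveolar macrophage markers were in the table, with Siglec5, an older symbol listed beside Siglecf, not counted again. They summed to 27703 to 35092 CPM (the count of a gene scaled by its library's sum) over all libraries. With smoke in WT 2 of the 14 rose and 7 fell (limma adjusted p under 0.05), beside 9.66% and 12.8% of all genes. Siglecf changed by -1.20 averaged over the genotypes. Of 12 B and plasma cell markers, a cell type known for high Xbp1, 2 (Ighm and Prdm1) were in the table, and their summed level was 19.2 to 35.5 CPM in WT air, 10.2 to 15.4 in WT smoke, 27.8 to 52.3 in KO air and 9.27 to 19.6 in KO smoke. Neutrophil markers (5 of 7 in the table) summed to 90.3 to 129 CPM in WT air and 159 to 357 in WT smoke, and to 86.1 to 134 in KO air and 139 to 314 in KO smoke. Dendritic cell markers (6 of 8) summed to 138 to 164 in WT air, 215 to 364 in WT smoke, 121 to 167 in KO air and 195 to 226 in KO smoke. The eosinophil list had 2 of 6 genes in the table, Ear6 and Siglece, at 72.0 to 82.2, 126 to 193, 71.2 to 123 and 119 to 161 CPM in the same order. Epx, Prg2, Ccr3 and Il5ra were not in the table, so this sum does not show the level of eosinophils. T and NK cell markers (2 of 8) were at 0.571 to 1.71, 7.47 to 41.2, 0 to 1.26 and 0.642 to 6.08, and monocyte and interstitial macrophage markers (9 of 12) at 108 to 135, 85.3 to 276, 103 to 151 and 76.2 to 100. The summed neutrophil and dendritic cell markers were thus higher in every smoke library than in every air library, and monocyte markers overlapped between the groups. Single markers went both ways. Of the 5 neutrophil markers 3 rose and 1 fell with smoke in each genotype, Csf3r changing by -1.64 averaged over the genotypes. In the same average Ear6 rose (3.06) and Siglece fell (-1.20) in the eosinophil list. Of the 2 B and plasma cell markers Prdm1 fell (-1.20), and Ighm differed by 0.79 and was not called. Igkc, Jchain, Mzb1, Sdc1 and Tnfrsf17 of that list were not in the table. The part of these other cells in the results was not tested. In sorted cells measured in bulk, fewer cells of a type and less RNA per cell cannot be told apart. The KO air libraries IIIb2, IIIb3 and IIIb4 stood apart, in which 1451 to 1645 genes had no read, beside 259 to 1224 elsewhere, and calls that were lost without them are given beside the results.

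Per kilobase of annotated exon, the chaperones were the most abundant of the 10 transcripts. In WT air Calr, which encodes the glycoprotein chaperone calreticulin, stood at 440 ± 24 CPM per kilobase (SD, n = 5). Hspa5 followed at 285 ± 73 and Hsp90b1, the ER member of the HSP90 family (GRP94), at 282 ± 27. Those 2 did not differ beyond their spread, and with the longest transcript as the length their order turned, to 328 for Hspa5 and 352 for Hsp90b1. Xbp1 came next at 154 ± 9, above Pdia4, a protein disulfide isomerase, at 109 ± 18. Sdf2l1, a partner of BiP, stood at 76.8 ± 22 and Herpud1 at 61.6 ± 11. The lowest 3, Edem1 (50.6 ± 3.1), Dnajc3 (50.6 ± 8.8) and Dnajb9 (43.4 ± 10.6), lay within their spread of each other. The 10 genes together took 0.529 ± 0.065% of the reads in WT air, 0.492 ± 0.022% in WT smoke, 0.559 ± 0.094% in KO air and 0.519 ± 0.020% in KO smoke, ranges that overlap.

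**Figure D1:**
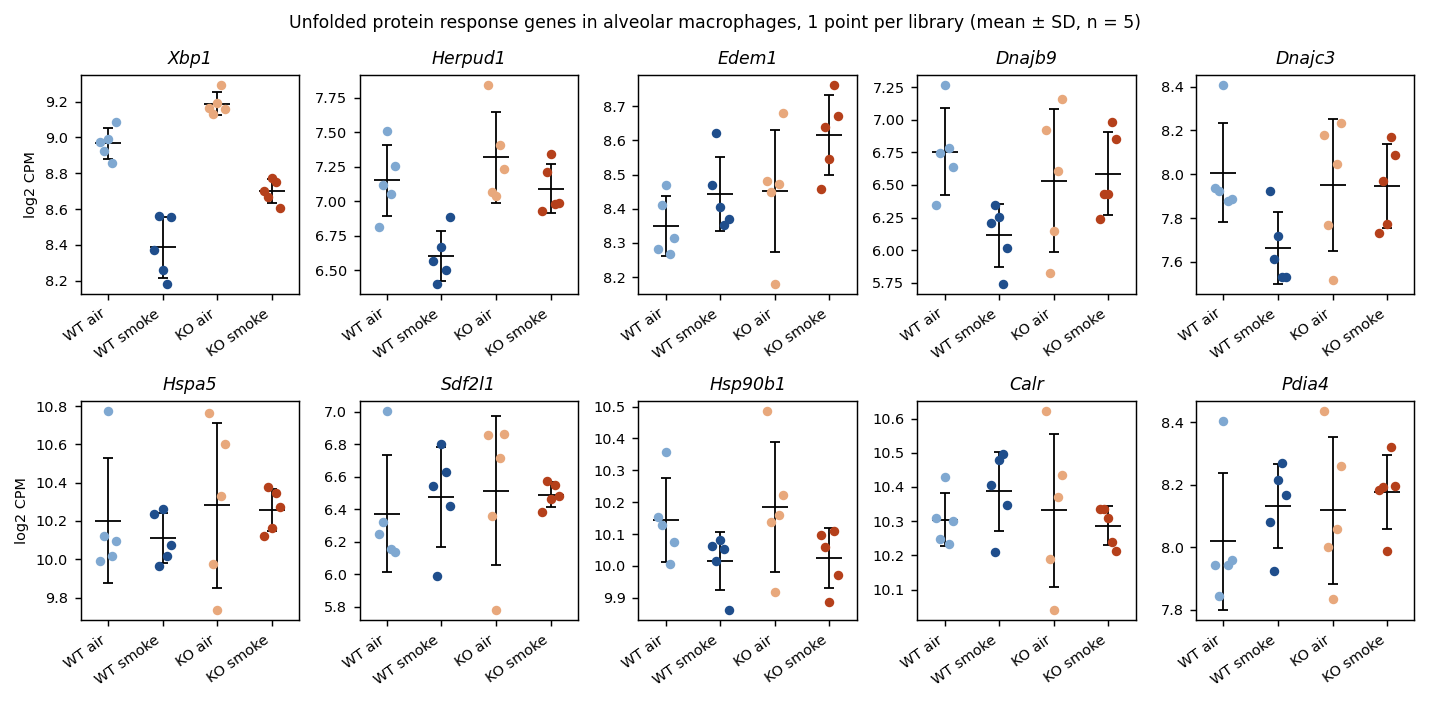
Level of each of the 10 genes (y axis, log2 CPM) in the 4 groups (x axis), with 1 point per library and the mean ± SD of 5 libraries in black; y axes differ between genes. The 4 groups of Xbp1 do not overlap, while Hspa5 in WT air and KO air spreads from 9.73 to 10.78 within and across groups.

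With smoke, the transcript of the pathway's transcription factor and those of Herpud1 and of a pair of BiP co-chaperones were lower in WT, while BiP itself and the other abundant chaperones passed no threshold. In WT, 4 of the 10 genes fell with smoke and 0 rose, at a limma adjusted p under 0.05 (Benjamini-Hochberg over all genes). Of all 13225 genes, 12.8% fell and 9.66% rose in the same comparison. The median log2 change of the 10 genes was -0.11, beside -0.02 for all genes. The 4 were Xbp1, Herpud1, Dnajb9 and Dnajc3.

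Xbp1 (ENSMUSG00000020484, chr11:5520659-5525893, plus strand) was the most clearly separated. Its log2 CPM in the WT air libraries was 8.97, 8.92, 8.99, 8.86 and 9.09, and in WT smoke 8.37, 8.56, 8.26, 8.18 and 8.56. Every smoke library lay below every air library. The change was -0.58 ± 0.07 (SE; 95% interval -0.72 to -0.44; limma adjusted p = 2.08e-07), or from 501 ± 30 to 337 ± 40 CPM (SD, n = 5). In KO the air libraries had 9.16, 9.13, 9.19, 9.30 and 9.16 and the smoke libraries 8.70, 8.66, 8.77, 8.75 and 8.61, again without overlap. That change was -0.49 ± 0.07 (adjusted p = 5.83e-06), from 583 ± 27 to 416 ± 19 CPM. Groups that do not overlap were found for 18.1% of all genes in WT and for 9.88% in KO. The change in WT ranked 163 of 13225 by p.

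Herpud1 encodes an ER membrane protein that gathers the machinery of ER-associated degradation (chr8:94386438-94395377, plus strand). WT air libraries had log2 CPM of 6.81, 7.12, 7.50, 7.05 and 7.26, and WT smoke libraries 6.57, 6.40, 6.66, 6.50 and 6.88. The groups overlapped in 1 place, where the highest smoke library lay above the lowest air library. The fall was -0.55 ± 0.13 (adjusted p = 0.00219) and was kept without any 1 library, at adjusted p values up to 0.0118. In KO the values were 7.84, 7.07, 7.04, 7.40 and 7.23 in air and 6.93, 7.21, 7.34, 6.98 and 6.98 in smoke, with a change of -0.23 ± 0.13 that did not pass (adjusted p = 0.254; 95% interval -0.49 to 0.04).

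Dnajb9 (chr12:44205559-44210326, minus strand) encodes ERdj4, a co-chaperone of BiP that also restrains IRE1. Its log2 CPM was 6.35, 6.75, 7.27, 6.78 and 6.64 in WT air and 6.21, 6.35, 6.25, 5.74 and 6.02 in WT smoke. The groups did not overlap, the lowest air library (6.35) meeting the highest smoke library (6.35) at 2 decimals. The change was -0.64 ± 0.19 (adjusted p = 0.0131), and without the WT air library Ib1 it was -0.52 with an adjusted p of 0.0581. In KO the values ran widely in air, 6.93, 5.83, 6.15, 6.61 and 7.16, against 6.24, 6.43, 6.43, 6.99 and 6.85 in smoke, and the change was 0.05 ± 0.19 (adjusted p = 0.897).

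Dnajc3 (chr14:118937976-118981697, plus strand) encodes P58IPK, a co-chaperone of BiP that also inhibits PERK. WT air libraries had 7.94, 7.93, 8.41, 7.88 and 7.89, and WT smoke libraries 7.92, 7.61, 7.72, 7.53 and 7.53. The smoke library IIa1 reached into the air range, and the air library Ib1 stood above all others. The change of -0.34 ± 0.12 (adjusted p = 0.0346) was lost without any of IIa5, IIb2, IIb3 or Ib1, with an adjusted p of 0.145 and a change of -0.24 without Ib1. In KO the change was -0.00 ± 0.12 (adjusted p = 0.989).

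The library Ib1 is part of these WT comparisons, and it carried the highest value of 9 of the 10 genes in WT air. Without it Xbp1 changed by -0.57 (adjusted p = 1.51e-06) and Herpud1 by -0.46 (adjusted p = 0.0118). A trend of level on transcript length also moved with WT smoke: per doubling of length the log2 level moved by -0.109 to -0.018 in the WT smoke libraries and by 0.020 to 0.052 in WT air. With that trend removed per library, Xbp1 changed by -0.64, Herpud1 by -0.62 and Dnajb9 by -0.67, all still called, and Dnajc3 by -0.24 with an adjusted p of 0.158.

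The folding enzymes and chaperones themselves gave smaller differences in WT, none of which passed. Hspa5 (chr2:34771970-34777547, plus strand) had log2 CPM of 9.99, 10.12, 10.78, 10.02 and 10.10 in WT air and 10.23, 9.97, 10.26, 10.02 and 10.08 in WT smoke. Ib1 lay above all smoke libraries, and the other 4 air libraries lay inside the smoke range. The difference was -0.09 ± 0.14, with a 95% interval of -0.38 to 0.20. For Hsp90b1 the difference was -0.13 ± 0.08 (interval -0.29 to 0.03), for Calr 0.08 ± 0.08 (-0.08 to 0.25; -0.13 with quantile normalization, not called), for Pdia4 0.11 ± 0.10 (-0.09 to 0.32) and for Sdf2l1 0.10 ± 0.17 (-0.24 to 0.45). Edem1, a lectin that takes misfolded glycoproteins to degradation, differed by 0.09 ± 0.08 (-0.06 to 0.25). With the length trend removed Edem1 was called higher in WT smoke, at 0.23 (adjusted p = 0.0143). The intervals of the main fit leave room for modest changes in either direction, and the one for Sdf2l1 is the widest of the 6.

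Calls and elements can be set side by side, with no test of a difference between genes. Of the 4 genes with the first element, Dnajc3 fell with smoke in WT and Hspa5, Calr and Hsp90b1 did not pass. Herpud1, with the second form, fell. Xbp1 and Dnajb9, without either element in the window, fell too.

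In KO, 1 of the 10 genes, Xbp1, fell with smoke and 0 rose, while 8.45% of all genes fell and 7.05% rose. The median change of the 10 was -0.02, beside -0.01 for all genes. Hsp90b1 (chr10:86690209-86705509, minus strand) had 10.49, 10.14, 9.92, 10.16 and 10.22 in KO air and 10.10, 10.06, 9.89, 10.11 and 9.97 in KO smoke. The groups overlapped, and the difference of -0.16 ± 0.08 had an adjusted p of 0.191. It was called without the KO air library IIIb2 (adjusted p = 0.0453). Edem1 (chr6:108828641-108859356, plus strand) had 8.48, 8.45, 8.18, 8.47 and 8.68 in KO air and 8.46, 8.64, 8.55, 8.76 and 8.67 in KO smoke, a difference of 0.16 ± 0.08 (adjusted p = 0.159), called without IIIb4 (0.0491) and with the length trend removed (0.21, adjusted p = 0.0356). Hsp90b1 shares its locus with Gm15344, another gene of the table, and whether the counting used strand is not stated.

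That a gene fell in WT and did not pass in KO does not show that the genotypes responded differently. The difference of the 2 smoke responses was called for 0 of the 10 genes and for 0.0% of all genes; at an unadjusted p under 0.05 it was 1 of the 10 and 9.84% of all genes. The 1 gene was Dnajb9, whose response was 0.70 ± 0.27 higher in KO (limma adjusted p = 0.365). For Dnajc3 the difference was 0.34 ± 0.17 (adjusted p = 0.509) and for Herpud1 0.32 ± 0.18 (adjusted p = 0.591). For Xbp1 it was 0.09 ± 0.10, with a 95% interval of -0.10 to 0.29.

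Averaged over the genotypes, which uses the libraries of both comparisons above, 2 of the 10 genes fell with smoke and 0 rose, against 17.2% and 13.6% of all genes. Xbp1 changed by -0.53 ± 0.05 (adjusted p = 7.00e-10), and its 10 smoke libraries, at most 8.77, all lay below its 10 air libraries, at least 8.86. Such a separation was found for 4.57% of all genes. Herpud1 changed by -0.39 ± 0.09 (adjusted p = 0.00144). Hsp90b1 at -0.14 ± 0.06 (adjusted p = 0.0526) and Edem1 at 0.13 ± 0.05 (0.0720) lay near the threshold on opposite sides of 0. Hsp90b1 was called, at -0.21, without IIIb2, IIIb3 and IIIb4 (adjusted p = 0.0105). It was also called, at -0.14 to -0.16, with either minimum level, log2 of CPM plus 1, quantile normalization, the code letter, library weights or voom weights. The limma adjusted p values there were 0.0246 to 0.0480. It was not called without a trend in the variance prior, with median centring or with the length trend removed. Edem1 was called, at 0.22, with the length trend removed (adjusted p = 0.000724), and also with quantile normalization or median centring.

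**Figure D2:**
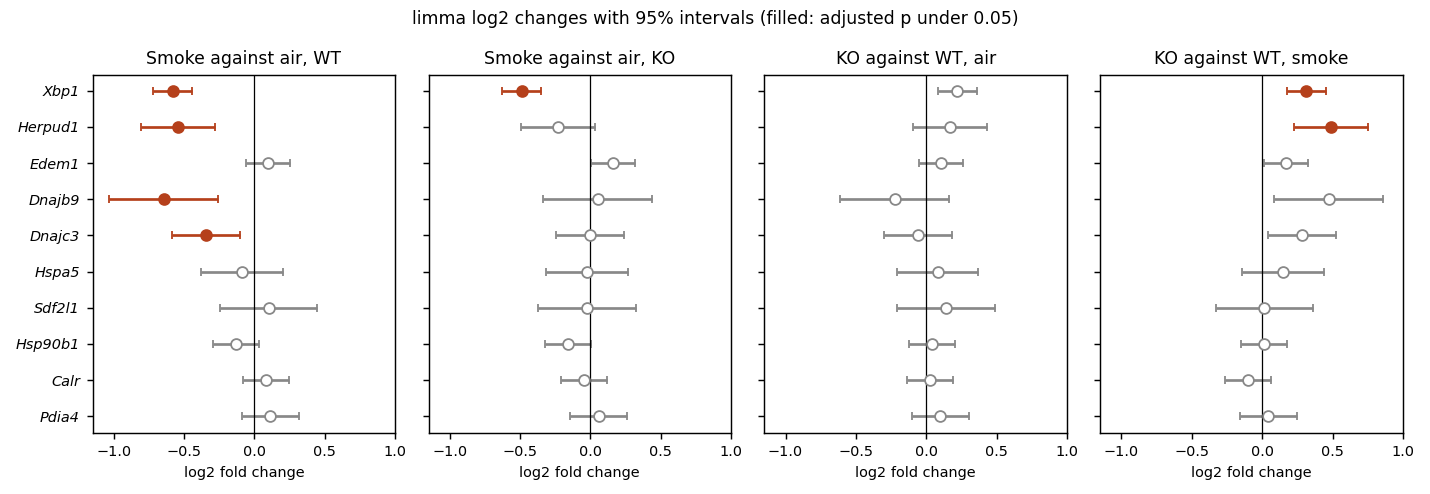
Log2 fold change (x axis) of each of the 10 genes (y axis) in the 4 comparisons of groups, with limma 95% intervals; filled points passed an adjusted p of 0.05. Xbp1 lies at -0.58 and -0.49 with smoke and at 0.22 and 0.31 with the loss of miR-155, and the intervals of Hspa5 cross 0 in all 4 panels.

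The loss of miR-155 went with higher Xbp1. In air, 0 of the 10 genes were called, beside 0.416% of all genes, and 1 of the 10 had an unadjusted p under 0.05, as did 11.6% of all genes. That 1 was Xbp1, at 8.86 to 9.09 in WT and 9.13 to 9.30 in KO, groups that do not overlap, with a difference of 0.22 ± 0.07 (adjusted p = 0.161). Groups without overlap were found for 1.83% of all genes. The other 9 differed by between -0.22 (Dnajb9) and 0.17 (Herpud1).

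In smoke, 2 of the 10 genes were higher in KO and 0 lower, while 0.892% of all genes were higher and 0.688% lower. Xbp1 was higher by 0.31 ± 0.07 (adjusted p = 0.0124), the KO libraries at 8.61 to 8.77 all lying above the WT libraries at 8.18 to 8.56. This call was lost without the WT smoke library IIb1 (0.28, adjusted p = 0.0616) or IIb2. Herpud1 was higher by 0.49 ± 0.13 (adjusted p = 0.0477), with KO at 6.93 to 7.34 and WT at 6.40 to 6.88. Groups without overlap were found for 4.24% of all genes. The Herpud1 call sat at the threshold and was lost without any 1 of 11 libraries, with adjusted p values up to 0.140. Dnajb9 (0.47 ± 0.19, adjusted p = 0.235), Dnajc3 (0.28 ± 0.12, 0.268) and Edem1 (0.17 ± 0.08, 0.308) had unadjusted p values under 0.05, as did 13.5% of all genes, and did not pass. The 10 genes had a median difference of 0.16, beside -0.02 for all genes. The comparison uses the same WT smoke libraries as the smoke response in WT, so a low value there enters both.

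Averaged over air and smoke, a comparison added after the data were seen, Xbp1 was higher in KO by 0.27 ± 0.05 (adjusted p = 0.00145), the only call among the 10 and among 1.84% of all genes called in either direction. Leaving out each library in turn gave adjusted p values of 0.000438 to 0.00502, and without IIIb2, IIIb3 and IIIb4 the difference was 0.25 (adjusted p = 0.0268). Herpud1 differed by 0.33 ± 0.09 (adjusted p = 0.0565). The order of the groups for Xbp1 was KO air, WT air, KO smoke and WT smoke, and no 2 of them overlapped. For Herpud1 WT smoke had the lowest mean, at 6.60 ± 0.18, and the other 3 groups overlapped.

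The 10 genes did not vary as 1 block. The share of the variation of Xbp1 that lay between libraries of 1 group was 9.15%, the rest lying between groups. For Herpud1 it was 40.5%, for Edem1 58.9%, for Dnajb9 66.9% and for Dnajc3 69.6%. For the chaperones it was 73.7% (Hsp90b1), 89.1% (Pdia4), 90.9% (Calr), 93.7% (Hspa5) and 96.8% (Sdf2l1). So most of the variation of these 5 was between libraries of the same genotype and exposure.

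**Figure D3:**
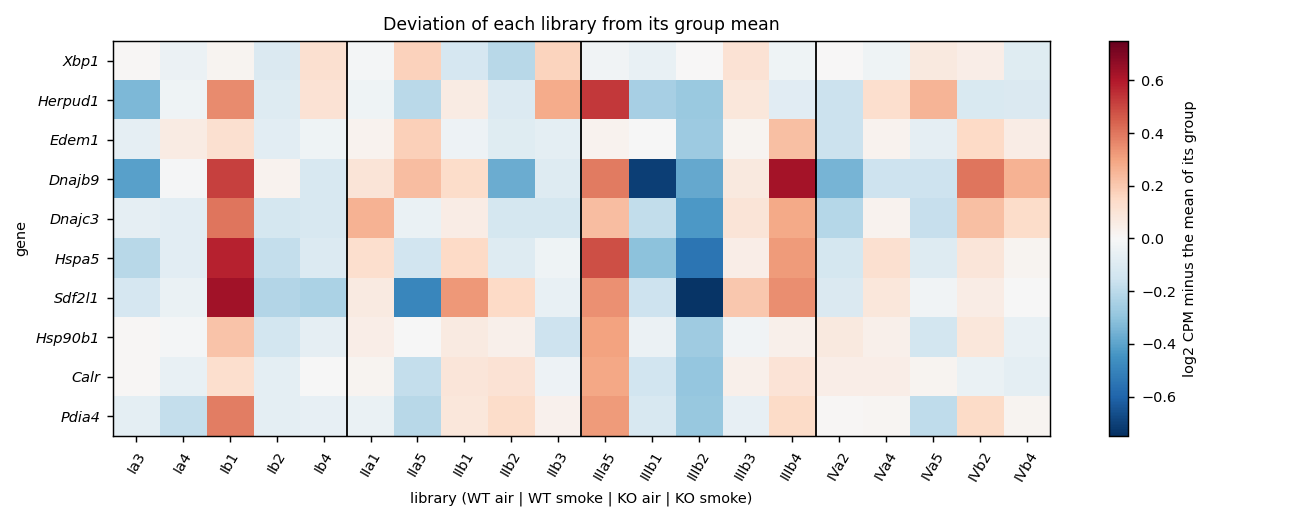
Log2 CPM of each gene (rows) in each library (columns, grouped by genotype and exposure) minus the mean of its group, from blue (below) to red (above). Hspa5, Sdf2l1, Dnajc3, Hsp90b1, Calr and Pdia4 are above their mean together in Ib1 and IIIa5 and below it in IIIb2, and Xbp1 is near 0 in these libraries.

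That variation was shared among the chaperone genes. Over the 20 libraries the deviations of Hspa5 from its group means had a Pearson r of 0.90 with Dnajc3, 0.90 with Sdf2l1, 0.86 with Pdia4, 0.81 with Hsp90b1 and 0.80 with Calr. The 15 pairs of these 6 genes ran from 0.59 to 0.90, with a median of 0.80. Xbp1 ran from -0.27 to 0.21 with the other 9, and had -0.04 with Hspa5. These are descriptions over libraries that share depth and scaling, 45 pairs in all, and the 95th percentile of r with Hspa5 over 8906 genes was 0.53. In KO air the pattern was widest: Hspa5 was 10.77 in IIIa5 and 9.73 in IIIb2, and Sdf2l1 (chr16:17130138-17132383, minus strand) was 6.85 and 5.78. IIIb2 held the lowest value of the group for 8 of the 10 genes, and it is 1 of the 3 libraries that stand apart.

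The genes most like Hspa5 over the libraries were Hyou1 (r = 0.96), another ER chaperone, Fkbp4 (0.94), Dnaja1 (0.92), Dnajc3 (0.90) and Hspa8 (0.90). Fkbp4, Dnaja1 and Hspa8 are chaperones or co-chaperones of the cytosol. For Xbp1 they were Il6ra (0.75), Chd6 (0.73), Adam22 (0.73), Hprt (0.72) and Zbtb39 (0.71), with a 95th percentile of 0.41. Heat shock genes of the cytosol and mitochondria moved beside Hspa5: Hspa1a, Hspa1b, Dnajb1, Hsph1, Hspe1, Hspd1 and Hsp90aa1 had r of 0.75 to 0.87. Hspa1a and Hspa1b are near-identical copies and their reads may be split between them. Hspa1a stood at 5.82 in Ib1, against 3.06 to 4.44 in the other WT air libraries, and at 5.75 in IIIa5, against 0.97 to 4.23 in the other KO air libraries. The 10 immediate early genes read beside them ran from -0.21 to 0.73 with Hspa5. All 17 genes, which also respond to the handling of cells, summed to 1685 CPM in Ib1 and 2236 in IIIa5, the highest of their groups. Ib4 came close to Ib1, at 1662 CPM, with Hspa5 at 10.10. The part of these 17 genes in the chaperone values was not tested. Of the 17, 6 fell with smoke in WT and 4 in KO, beside 12.8% and 8.45% of all genes, and 0 rose in either. Of the 4 in KO, Ier2 alone kept its call without IIIb2, IIIb3 and IIIb4.

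**Figure D4:**
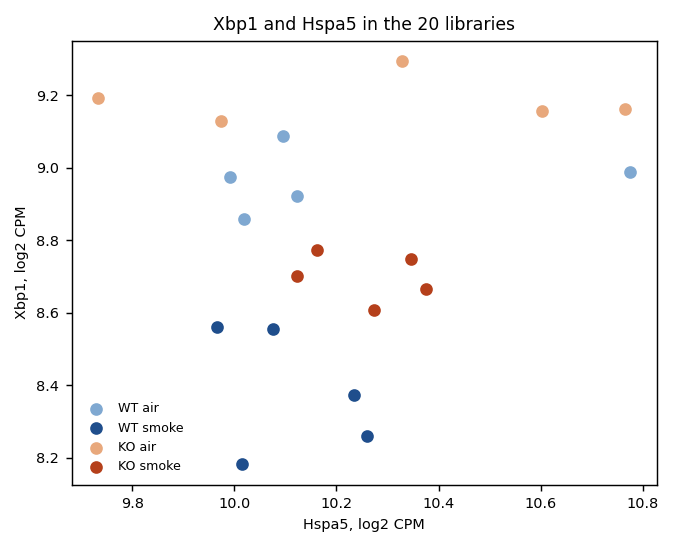
Xbp1 (y axis, log2 CPM) against Hspa5 (x axis, log2 CPM) in the 20 libraries, coloured by group. The groups are stacked along the Xbp1 axis, and along the Hspa5 axis WT air and KO air reach from 9.73 to 10.78 with smoke libraries between 9.97 and 10.38.

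Beyond the 10, 124 other genes of ER folding and stress were read in 9 lists. With smoke in WT 22 rose and 9 fell, and in KO 12 rose and 4 fell. Without IIIb2, IIIb3 and IIIb4 10 rose and 2 fell in KO. Of all genes 9.66% rose and 12.8% fell with smoke in WT, and 7.05% rose and 8.45% fell in KO. The smoke counts of single lists below stand beside the same shares. The 3 sensor transcripts did not pass in WT, Ern1 (IRE1) differing by -0.12, Eif2ak3 (PERK) by -0.22 and Atf6 by -0.12, and of the 12 genes of the sensor list 0 were called in either genotype. At an unadjusted p under 0.05 it was 1 of the 12 in WT and 0 in KO, beside 33.0% and 28.0% of all genes. Hyou1, whose level followed Hspa5, differed by -0.00 in WT and 0.02 in KO.

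Some of the genes that bring proteins into the ER rose in WT. Of 18 genes of the translocon and signal peptide processing, 7 rose and 0 fell, with a median of 0.20 beside -0.02 for all genes. Spcs2, of the signal peptidase, rose by 0.35 ± 0.07, Ssr2, of the translocon-associated complex, by 0.45 ± 0.11, Sec61a1, the channel itself, by 0.26 ± 0.06 and Ssr4 by 0.30 ± 0.07. With the length trend removed Ssr2 stayed called at 0.31 (adjusted p = 0.0362), and Spcs1 and Sec61b, named here for that reason and not by the rule, were no longer called (adjusted p = 0.194 and 0.240). In KO 0 of the 18 were called, and 3 had an unadjusted p under 0.05, beside 28.0% of all genes. The difference between the genotypes was called for none of them, and 2 of 18 had an unadjusted p under 0.05.

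N-glycosylation genes moved in both directions. In WT 6 of 15 rose and 3 fell. Rpn2, a subunit of the oligosaccharyltransferase that attaches glycans, rose by 0.41 ± 0.06 (adjusted p = 2.29e-06) and Dad1 by 0.49 ± 0.08 (4.59e-05). Mogs, the glucosidase that trims the first glucose from a new glycan, fell by 1.15 on the log2 scale (SE 0.10, adjusted p = 1.54e-09), the largest fall of the 124 genes, and Tusc3 by 0.63. In KO 4 rose and 1 fell: Rpn2 rose by 0.33 ± 0.06, Ddost by 0.22 and Stt3a by 0.19, and Mogs changed by -1.18 ± 0.10. The calls of Ddost and Stt3a in KO were lost without single libraries, with adjusted p values up to 0.116, and that of Ddost without IIIb2, IIIb3 and IIIb4 together (0.0699). Uggt1, which also rose in KO (0.18), is named here for that reason and not by the rule. Without the same 3 libraries it was not called (0.10, adjusted p = 0.520). Mogs was 6.29 to 6.44 in WT air and 5.01 to 5.42 in WT smoke, and 6.37 to 6.71 in KO air and 5.17 to 5.66 in KO smoke, so that smoke and air did not overlap in either genotype.

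A few other folding helpers rose. Of 18 further chaperones and cofactors, 3 rose and 0 fell in WT: the prolyl isomerases Ppib (0.37 ± 0.06) and Fkbp2 (0.51 ± 0.10), and Calu (0.31 ± 0.07). In KO they were Dnajc10 (0.40 ± 0.10), Sil1 (0.64 ± 0.17), the nucleotide exchange factor of BiP, and Ppib (0.19 ± 0.06), whose call in KO depended on each of 7 libraries (adjusted p values up to 0.0848 without them). Without IIIb2, IIIb3 and IIIb4 Sil1 (0.30, adjusted p = 0.251) and Ppib (adjusted p = 0.226) were not called in KO. Of 15 genes of disulfide formation, Prdx4, an ER peroxiredoxin, rose by 0.79 ± 0.13 in WT and 0.91 ± 0.13 in KO, and P4hb, a protein disulfide isomerase, by 0.37 ± 0.07 and 0.26 ± 0.07. Tmx3 (-0.44) and Qsox1 (-0.20) fell in WT, the latter depending on each of 7 libraries (adjusted p values up to 0.110 without them). Prdx4 was 4.80 to 5.04 in WT air and 5.66 to 5.97 in WT smoke.

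In the list of 23 genes of ER-associated degradation, Vcp, the ATPase that pulls proteins out of the membrane, rose by 0.25 (lost without IIb1, adjusted p = 0.0611), and Sel1l, the partner of the HRD1 ligase, fell (-0.20) in WT. Sel1l was not called with the length trend removed (-0.05, adjusted p = 0.598). In KO 0 rose and 1 fell, Ube2g2 (-0.30), which was not called without IIIb2, IIIb3 and IIIb4 (adjusted p = 0.0587). Between genotypes in smoke Sel1l was higher in KO by 0.33 ± 0.07 (adjusted p = 0.00529). Also in smoke, Fkbp2 (-0.36), Ssr2 (-0.42), Ssr4 (-0.32) and Atf4 (-0.31) were lower in KO. The other 119 of the 124 genes were not called, while 0.892% of all genes were higher and 0.688% lower. With the length trend removed none of these 4 was called (adjusted p of 0.240, 0.235, 0.0568 and 0.128), and Sel1l was (0.27, adjusted p = 0.0138). In air 0 of the 124 were called, and 10 had an unadjusted p under 0.05, beside 11.6% of all genes.

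In the PERK and ATF4 branch 2 of 13 genes rose and 0 fell in WT, and 2 rose and 2 fell in KO. Trib3, a pseudokinase induced by ATF4, rose by 2.0 ± 0.31 in WT (adjusted p = 1.91e-05) and 1.52 ± 0.31 in KO. It was 1.26 to 2.28 in WT air and 3.03 to 4.30 in WT smoke, without overlap. Ddit4 also rose in WT (3.19 ± 0.98), on 106 reads over the 20 libraries, and its call was lost without IIa1 (adjusted p = 0.0671). In KO Asns, asparagine synthetase, rose by 1.0 ± 0.26, and Atf4 (-0.28) and Cebpb (-0.31) fell, Cebpb depending on each of 4 libraries (adjusted p values up to 0.0873 without them). Without IIIb2, IIIb3 and IIIb4 Asns (0.49, adjusted p = 0.334) and Cebpb (0.190) were not called. Ddit3, which encodes CHOP, differed by 0.05 ± 0.20 in WT and 0.15 ± 0.20 in KO and did not pass.

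Of 2 measured transcripts from a list of known targets of decay by IRE1, Hgsnat, a lysosomal acetyltransferase, rose by 0.55 ± 0.08 in WT and 0.47 ± 0.08 in KO. The other, Bloc1s1, named as the rest of the list, differed by -0.41 ± 0.78 in WT and 0.89 ± 0.78 in KO and was not called. Of 8 genes of ER calcium handling, 2 fell in WT and 0 in KO. They were the calcium release channels Itpr2 (-0.32) and Itpr1 (-0.42), and neither was called with the length trend removed (-0.04 and -0.17).

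**Figure D5:**
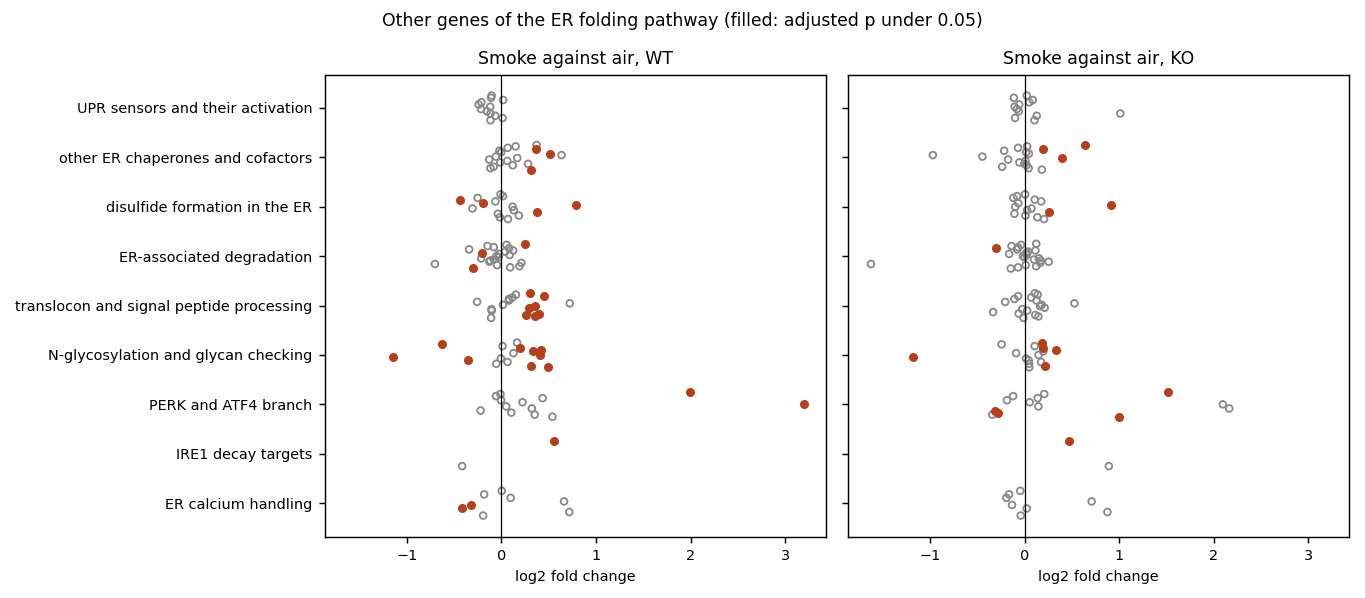
Log2 change with smoke (x axis) of the other genes of ER folding and stress in WT (left) and KO (right), 1 point per gene in 9 lists (y axis); filled points passed an adjusted p of 0.05. Filled points of the translocon list lie to the right of 0 in WT, where 7 of 18 rose, and are absent in KO, and Mogs lies farthest to the left among filled points in both panels.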

How the data were processed

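Sorted cells gave RNA by the miRNeasy Mini kit, and 25 ng entered a TruSeq poly-A library, per the labels' protocols. Reads were aligned with STAR 2.6.0c to GRCm38.p6 and analysed with limma, per the submitters' processing notes (counter, annotation and low-count filter: not given in the sources used here). Log2 CPM were deposited by the authors. With 0.5 reads added per count, 100.0% of 264500 values gave back whole reads (tolerance 0.001). limma 3.58.1 (R 4.3.3) was fitted to all 13225 genes and 20 libraries with a mean per group and a trended variance prior; tests were 2-sided, with Benjamini-Hochberg adjustment across every gene of the comparison. The fit was tested on simulated data. Groups came from the labels. Named are the 10 genes, up to 4 called genes of smallest p from each list and comparison, and the 5 genes most like Hspa5 and Xbp1; others are said to be added. Lists of markers and of sex-linked genes were also read. Xist was not among the measured genes. The Y-linked Ddx3y, Eif2s3y, Kdm5d and Uty summed to 178 to 279 CPM over all libraries, so the libraries read as male. Of these 4, 3 fell with smoke in WT and 1, Uty, in KO, beside 12.8% and 8.45% of all genes. The call of Uty in KO was lost without IIIb2, IIIb3 and IIIb4 (limma adjusted p = 0.136). The members and lists were chosen with earlier results of these data known. Lengths and positions came from GENCODE M21 (95.5% of genes matched by name). Python 3.11.15 did the rest. Alternatives were 12 settings and leaving out each of the 20 libraries. A result of the degradation list is not reported here.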

Additional observations from a re-analysis of the deposited data

Results flagged for a closer look

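Within the 4 groups of 5 libraries, 40 sets of values (10 genes in each group) were examined for a library that stood far from the other 4, by its gap to the nearest divided by the range. Chance alone marks about 1 in 20 such groups. The 4 sets marked all concerned the WT air library Ib1. Dnajc3 was 8.41 there, the others lying from 7.88 to 7.94. Hspa5 was 10.8, against 9.99 to 10.12, Pdia4 was 8.40, against 7.84 to 7.96, and Sdf2l1 was 7.0, against 6.13 to 6.32. These genes share their deviations over libraries, so the 4 marks are not independent of each other. Hspa1a stood at 5.82 in the same library, and the part of heat shock genes in these values was not tested.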

How the results depend on the processing

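Xbp1 fell with smoke in WT and in KO under all 12 settings, on average under the 11 that apply there (a fit of the compared groups alone has none), and without each library in turn. Other counts of the 10 genes moved. Genes lower in WT smoke numbered 2 without a trend in the variance prior (main 4) and 2 to 4 without 1 library. Genes higher numbered 1, Edem1, with the length trend removed, in WT and in KO alike (main 0). Without 1 library, genes lower in KO smoke numbered 1 to 2 and higher 0 to 1. Genes higher in KO than in WT in smoke (main 2) numbered 0 without the trend, 1 with the code letter as covariate, 1 with voom weights, 4 with library weights and 0 to 2 without 1 library. On average over genotypes, genes lower with smoke (main 2) numbered 4 with quantile normalization or library weights, 3 with either minimum level, log2 of CPM plus 1, the code letter, voom weights or without IIIb2, IIIb3 and IIIb4, and 2 to 4 without 1 library; genes higher (main 0) numbered 1 with quantile normalization, median centring or the length trend removed, and 0 to 1 without 1 library. In the comparison of genotypes averaged over exposures, genes higher (main 1) numbered 2 with a minimum mean log2 CPM of 1 or 3, log2 of CPM plus 1, median centring, library weights or the length trend removed, and 1 to 2 without 1 library. Calr turned from 0.02 to -0.14 in the average smoke response with quantile normalization (adjusted p = 0.0401). The cause was not tested. The counts were 0 under each of 12 settings in the comparison of genotypes in air and each of 11 for the difference of responses. No paired analysis was possible because each library code occurs once.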
